A study of Mus musculus with 20 samples.

Results

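RNA-seq of sorted tumour-infiltrating CD8+ T cells gives the average effect of ABL503 on gene expression over mice that did and did not also receive pembrolizumab. It is the mean of the difference ABL503 minus Control and the difference Combination minus Pembrolizumab, so that 10 libraries with ABL503 are set against 10 without it, balanced over pembrolizumab. All 20 libraries of the series enter it, and no library serves in both differences. Of 45777 gene symbols in the table, 11794 reached at least 1 FPKM (fragments per kilobase of transcript, scaled to library size) in 5 or more libraries and were tested. All mice were C57BL/6 animals that carried human PD-1, PD-L1 and 4-1BB, and they were inoculated with MC38 colon carcinoma cells that overexpress human PD-L1. Treatment began once the average tumour measured 150 to 200 mm3, and the cells were taken 4 days later. The groups were Control, whose treatment the labels do not describe further, Pembrolizumab, ABL503, and the Combination of ABL503 and pembrolizumab, with 5 libraries each.

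ABL503 is a bispecific antibody that binds PD-L1 as well as the costimulatory receptor 4-1BB, and pembrolizumab blocks the inhibitory receptor PD-1. 4-1BB (gene Tnfrsf9) belongs to the TNF receptor superfamily, is induced on T cells after antigen contact, and signals through TRAF adaptors to NF-kB, which supports survival, cytokine release and cytotoxic function in CD8+ T cells. OX40 ligand (Tnfsf4), CD70 and lymphotoxin beta (Ltb) are ligands of other receptors of the same superfamily. The receptor targets in these mice are human proteins while the submitters' processing notes name only a mouse genome build, so how far mouse Tnfrsf9, Pdcd1 and Cd274 values count transcripts of the humanised genes is not known. Whether each library is a mouse of its own is not said in the labels, so the p-values speak of variation among these libraries, which may be technical.

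The libraries carried the sorted cell type. Cd8a, the CD8 alpha chain, ran from 283 to 458 FPKM with ABL503 and from 224 to 353 without, and Cd3e of the T-cell receptor complex from 203 to 321 and from 186 to 325. Cd4 reached at most 0.630 FPKM with and 0.624 without ABL503. Transcripts known from other cells were present as well. The myeloid genes Cd68 (13.1 to 36.8 FPKM), Fcer1g (5.03 to 70.03) and Tyrobp (3.13 to 81.7), the MHC class II gene H2-Ab1 (5.46 to 138) and the immunoglobulin gene Ighm (16.6 to 84.5) were above 0 in all 20 libraries, while Csf1r of macrophages was listed at 0 in 10 and the stromal gene Lum in all 20. Column sums ran from 575918 to 654333, and pairwise correlations of log2 values from 0.936 to 0.977. Sequencing depth is not known, so the spread between libraries sets the precision. Control 1 and ABL503 3 had the lowest library weights in limma (0.513 and 0.589), and the adjusted p without both is given for the named genes that then no longer passed.

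More genes passed as higher with ABL503 than as lower. In the average effect 91 of 11794 genes passed an adjusted p of 0.05 (0.772%), 80 of them higher (0.678%) and 11 lower (0.0933%). Each change is a difference of log2(FPKM + 1), a scale that makes fold changes of low genes look smaller, and is given with its standard error (SE) from limma. The rises had a median of 0.55 and ran from 0.21 to 2.80, and 17 exceeded 1. The falls had a median of -0.48 and ran from -1.76 to -0.32. Over all genes tested the median was 0.00, with 5829 positive and 5965 negative differences, and at an unadjusted p under 0.05 there were 876 higher and 728 lower genes. Of the 80 higher, 7 were near-identical models of Gapdh. The difference had the same sign without and with pembrolizumab in 90 of the 91 genes, against 53.7% of all genes tested, where a gene that passes the average is favoured to agree in sign. Of the 91, 33 also passed in ABL503 minus Control and 6 in Combination minus Pembrolizumab, 0 passed in both, and 52 passed in neither.

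Ligands of the TNF family were among the genes that rose. Of 13 tested ligands 3 rose and 0 fell, with a list median of 0.18. Over all genes tested 0.678% rose and 0.0933% fell, the shares to set beside this and the later list counts. Tnfsf4, on chromosome 1 from 161395438 to 161418206 (GRCm38, as for all positions), encodes OX40 ligand. Its values in libraries 1 to 5 were 5.43, 6.78, 1.12, 7.32 and 4.36 FPKM in Control and 25.5, 20.2, 24.9, 20.1 and 32.5 in ABL503. They were 5.89, 6.64, 5.005, 4.56 and 9.32 in Pembrolizumab and 11.5, 12.6, 11.3, 17.8 and 23.5 in the Combination. Every library with ABL503 stood above every library without it, and Tnfsf4 was the only one of 11794 genes for which this held (0.00848%). It rose by 1.68 (SE 0.21, adjusted p = 0.000472). The difference was 2.22 (SE 0.29, adjusted p = 0.00141) without pembrolizumab and 1.14 (SE 0.29, adjusted p = 0.0998) with it, and the test of the difference between these values gave -1.07 (SE 0.41, adjusted p = 0.343).

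Cd70, the ligand of CD27 (chromosome 17, 57145997 to 57149777), rose by 2.16 (SE 0.32, adjusted p = 0.00237). It read 1.19, 3.96, 0.909, 1.06 and 3.50 FPKM in Control and 13.9, 17.6, 27.6, 17.98 and 23.0 in ABL503, with no overlap. With pembrolizumab the groups overlapped, at 4.31, 2.11, 1.89, 7.81 and 1.74 in Pembrolizumab and 2.76, 19.6, 4.87, 17.2 and 23.2 in the Combination, where libraries 1 and 3 were the low ones. Ltb (chromosome 17, 35194507 to 35196305), the membrane-bound lymphotoxin, rose by 0.49 (SE 0.09, adjusted p = 0.0163). The 10 libraries with ABL503 ran from 145 to 212 FPKM around a median of 164, and the 10 without from 90.4 to 153 around 122. Its difference was 0.29 (SE 0.13, adjusted p = 0.404) without and 0.69 (SE 0.13, adjusted p = 0.031) with pembrolizumab. Tnfsf11, the ligand RANKL, did not pass at 0.78 (SE 0.22, adjusted p = 0.108).

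**Figure D1:**
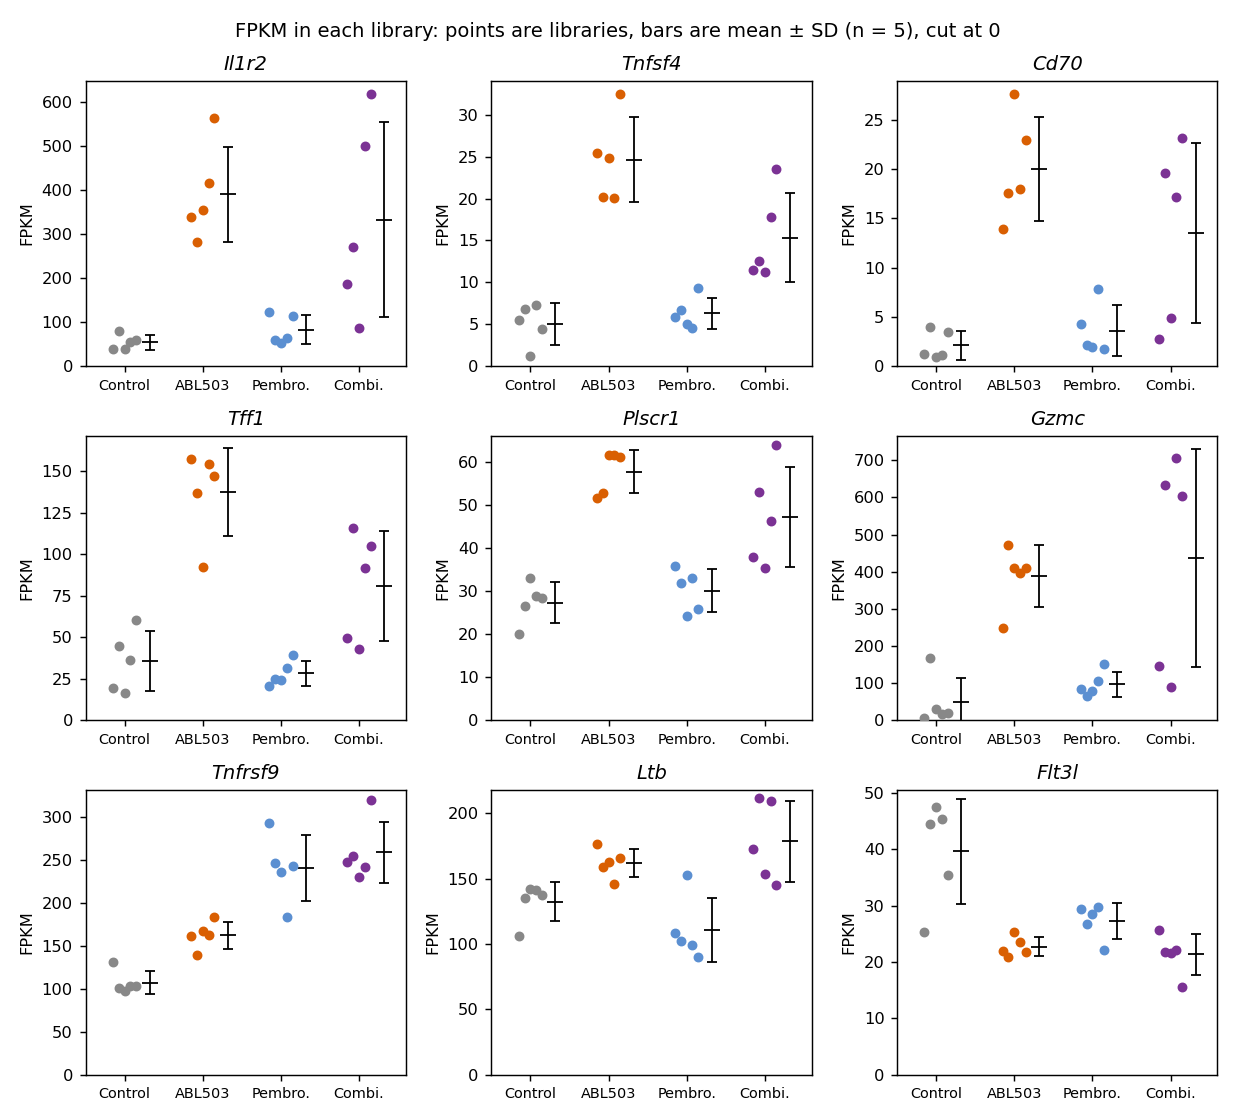
FPKM of 9 genes in each of the 20 libraries, with points for libraries and bars for the mean ± SD of the 5 libraries of a group, cut at 0. For Tnfsf4 the libraries with ABL503 lie between 11.3 and 32.5 FPKM, above all libraries without it, which lie between 1.12 and 9.32, while for Tnfrsf9 the Pembrolizumab and Combination groups are the high ones.

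Of 12 tested receptors of the TNF family 1 rose and 0 fell, with a list median of -0.06. The list holds costimulatory receptors but also other members of the family, such as Fas, Tnfrsf1a, Tnfrsf22 and Tnfrsf23. The riser was Tnfrsf9 (chromosome 4, 150920155 to 150946104), the mouse 4-1BB gene, at 0.36 (SE 0.08, adjusted p = 0.0428). It stood at 107 ± 13.6 FPKM in Control (mean ± SD, n = 5, as for all such values), 163 ± 15.8 in ABL503, 241 ± 38.8 in Pembrolizumab and 259 ± 35.5 in the Combination. The difference was 0.60 (SE 0.12, adjusted p = 0.014) without pembrolizumab and 0.11 (SE 0.12, adjusted p = 0.72) with it. The call was lost in 16 of the 20 fits that left out 1 library, with an adjusted p of up to 0.0953 without ABL503 5, and also after quantile normalization (adjusted p = 0.0502), after rescaling libraries to equal sums (0.0514) and without Control 1 and ABL503 3 (0.0528). Tnfrsf4, the receptor of OX40 ligand, gave 0.39 (SE 0.15, adjusted p = 0.236), with 213 to 490 FPKM with ABL503 and 212 to 448 without.

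Downstream of these receptors, none of 24 TRAF adaptor and NF-kB pathway genes passed (median -0.05). Birc2, an inhibitor of apoptosis bound to TRAF2, gave 0.21 (SE 0.08, adjusted p = 0.234), Birc3, its relative, 0.14 (SE 0.08, adjusted p = 0.429) and Traf1, an adaptor of 4-1BB, 0.13 (SE 0.07, adjusted p = 0.433). None of 13 BCL2 family genes passed either (median -0.04). Bcl2l1, which encodes BCL-XL, stood at 11.4 ± 0.927, 13.9 ± 1.82, 11.6 ± 1.42 and 9.96 ± 1.82 FPKM across Control, Pembrolizumab, ABL503 and Combination libraries, a difference of -0.21 (SE 0.09, adjusted p = 0.264). Tank, a TRAF-binding regulator that is in neither list and was chosen after its values were seen, rose by 0.42 (SE 0.09, adjusted p = 0.0227), with 76.0 to 120 FPKM with ABL503 and 52.7 to 98.3 without.

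Among the risen genes, promoters in the RefSeq table for GRCm38.p6 were searched for the NF-kB consensus on both strands over the 250 bases before the start. It was found for 11 of 55 risen genes with a promoter (20%), for 1 of 7 fallen genes (14.3%) and for 836 of 8087 tested genes (10.3%). A gene can have several RefSeq starts, and a match before any of them was counted. The 11 include the heat-shock genes Hspa1a and Hspa1b, whose windows were identical at 247 of 250 bases, and do not include Tnfsf4 or Cd70. Among TNF family ligands with a promoter a match was found for 1 of 9 (11.1%). It was found for 9 of 21 TRAF adaptor and NF-kB pathway genes (42.9%), a list in which none passed. The matches of the 3 genes of TNF signalling among the 11 are shown with their flanks, on the plus strand, with the match in capitals. That of Tnfrsf9 lies at chr4:150927947-150927975, those of Tank, before different starts, at chr2:61593015-61593044 and chr2:61578537-61578566, and that of Ltb at chr17:35194410-35194439.
Tnfrsf9: agagcagctGGGGATTTCCCaggaggccc
Tank: ctttgtgggcGGGGCTTTCCtgcagaggcg
Tank, other start: atttctcagtGGAAGTCCCCagttcaacac
Ltb: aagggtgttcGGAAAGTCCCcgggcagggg
Their first bases lie 43, 72, 39 and 87 bases before a RefSeq start. In the same order the 250-base windows overlap an annotated exon by 81, 20, 1 and 68 bases. The Tnfrsf9 match and the first Tank match lie within the genes, past their first bases at 150920155 and 61578557. A match describes the sequence and says nothing of binding in these cells.

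Il1r2 (chromosome 1, 40084692 to 40125230), the decoy receptor that binds interleukin 1 without signalling, was the only riser among 19 tested interleukin receptors (0 fell, median -0.05). It rose by 2.31 (SE 0.28, adjusted p = 0.000472). Control libraries read 37.5, 79.0, 38.8, 54.5 and 58.8 FPKM and ABL503 libraries 338, 281, 353, 415 and 562. Pembrolizumab libraries read 123, 58.6, 52.7, 63.6 and 113, and Combination libraries 185, 271, 86.0, 499 and 617. Without pembrolizumab the groups were far apart, and with it 1 Combination library, number 3, fell inside the Pembrolizumab range. The difference for Il1r2 was 2.85 (SE 0.39, adjusted p = 0.00189) without pembrolizumab and 1.77 (SE 0.39, adjusted p = 0.0595) with it.

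Of 19 cytokine and chemokine genes 0 rose and 1 fell, with a median of 0.05. The one that fell was Flt3l, the growth factor of dendritic cells and their precursors, by 0.55 (SE 0.11, adjusted p = 0.018). It read 25.2, 44.5, 47.4, 45.4 and 35.4 FPKM in Control and 21.9, 21.0, 25.3, 23.5 and 21.8 in ABL503, where only the lowest Control library reached the ABL503 range. Pembrolizumab ran from 22.1 to 29.8 and the Combination from 15.6 to 25.7. Ifng, interferon gamma, gave 0.17 (SE 0.12, adjusted p = 0.55) with a 95% interval from -0.07 to 0.41. Il23a, the p19 subunit of interleukin 23 and in none of the lists, was chosen after its values were seen. Its difference was 1.19 (SE 0.20, adjusted p = 0.0105) at low levels, with 2.13, 2.50, 2.13, 7.43 and 5.01 FPKM in ABL503 against 0 to 1.03 in Control, and 0.171 to 1.92 in the Combination against 0 to 0.663 in Pembrolizumab. Il23a reached the filter through libraries with ABL503, since at most 1.03 FPKM was listed without it, so that its call is a description, and without the filter it did not pass (adjusted p = 0.0529).

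Of 18 genes in the perforin and granzyme list 2 rose and 0 fell, with a median of 0.10. Besides perforin and granzymes the list holds Srgn, Lamp1, Fasl, Nkg7, Ctsw, Ctsc, Serpinb9, Serpinb6b and Serpinb9b. Gzmc, granzyme C (chromosome 14, 56231397 to 56241647), had the largest rise of all named genes at 2.80 (SE 0.44, adjusted p = 0.00507). Control libraries read 6.48, 167, 29.3, 17.1 and 20.3 FPKM, with library 2 far above the others, and ABL503 libraries 248, 473, 411, 396 and 409. Pembrolizumab libraries read 85.4, 64.2, 78.5, 106 and 151. In the Combination libraries 2, 4 and 5 read 633, 706 and 604, and libraries 1 and 3 read 145 and 90.7, within the Pembrolizumab range. Gzme, granzyme E, rose by 1.92 (SE 0.37, adjusted p = 0.018) and stood at 0.246 ± 0.523, 2.74 ± 2.20, 6.23 ± 4.93 and 10.3 ± 5.61 FPKM across Control, Pembrolizumab, ABL503 and Combination libraries. Gzmf gave 1.86 (SE 0.51, adjusted p = 0.0976). Granzymes C to G are close relatives on chromosome 14, and how the quantification divided reads they share is not given in the sources used here.

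Perforin and granzymes A and B did not pass. Gzmb, granzyme B, gave 0.29 (SE 0.14, adjusted p = 0.367, 95% interval 0.00 to 0.58), and Prf1, perforin, 0.31 (SE 0.15, adjusted p = 0.349). The tryptase Gzma gave -0.85 (SE 0.24, adjusted p = 0.108). Prf1 stood at 6.30 ± 2.27 FPKM in Control, 12.0 ± 4.09 in ABL503, 33.0 ± 4.34 in Pembrolizumab and 28.5 ± 4.88 in the Combination. Its effect of pembrolizumab, averaged over both ABL503 levels, was 1.75, and the ABL503 effect was lower than that by 1.43 (SE 0.21, adjusted p = 0.00447). For Gzmb the pembrolizumab effect was 1.43 and the ABL503 effect differed from it by -1.14 (SE 0.20, adjusted p = 0.00609).

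Beside these groups, the largest rises above a mean log2(FPKM + 1) of 3 took in secreted and membrane proteins. Serpine2, a secreted serine protease inhibitor, rose by 1.83 (SE 0.32, adjusted p = 0.0105) and stood at 2.10 ± 2.46, 30.1 ± 18.6, 15.3 ± 10.6 and 65.9 ± 23.6 FPKM across Control, Pembrolizumab, ABL503 and Combination libraries, so that each antibody group exceeded Control. Tff1, a trefoil peptide of mucosal epithelium, rose by 1.73 (SE 0.22, adjusted p = 0.000472), with 43.0 to 158 FPKM with ABL503 (median 110) and 16.7 to 60.7 without (median 28.4). Its ranges did not overlap within either pembrolizumab level. Plscr1, a phospholipid scramblase known as an interferon-induced gene, rose by 0.84 (SE 0.11, adjusted p = 0.000472), with 35.3 to 63.9 FPKM with ABL503 (median 52.8) and 19.98 to 35.8 without (median 28.6). Penk, the enkephalin precursor, rose by 1.68 (SE 0.38, adjusted p = 0.0412), but with ABL503 it ran from 11.7 to 101 FPKM, and the call was lost in 14 of 20 fits without 1 library (adjusted p up to 0.0896 without Combination 5) and without Control 1 and ABL503 3 (adjusted p = 0.114).

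The other members of this set rose by 0.59 to 0.82. Serpina3g, an intracellular protease inhibitor of activated T cells, rose by 0.65 (SE 0.14, adjusted p = 0.0305), Plk2, a polo-like kinase, by 0.68, and the dynein light chain Dynlt3 by 0.67. Tubb6, a beta tubulin, rose by 0.60 (adjusted p = 0.0428), Tmem173, which encodes the DNA-sensing adaptor STING, by 0.59 (adjusted p = 0.021), and AA467197 by 0.82 (adjusted p = 0.0337). Calls lost without 1 library were those of Tubb6 in 14 of 20 fits (adjusted p up to 0.0942, without ABL503 5), Serpina3g in 12 (up to 0.0695, without Combination 2), AA467197 in 10 (up to 0.0706, without Control 1), Plk2 in 6 (up to 0.0671, without Combination 2) and Dynlt3 in 6 (up to 0.0624, without Combination 5). Tmem173 kept its call in all 20.

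Ranges that did not overlap within either pembrolizumab level were found for 8 genes in the upward direction (0.0678%) and 1 in the downward direction (0.00848%), and all 9 were among the 91. The 8 were Tnfsf4, Tff1, Elk3, Rnf13, Praf2, Tspan31, Zbtb46 and Gm10359, and the 1 was Rpl13a. Elk3, an ETS-family transcription factor, rose by 0.56 (SE 0.11, adjusted p = 0.021) although neither level passed alone, at 0.56 (adjusted p = 0.138) and 0.57 (adjusted p = 0.14). Where the mean log2(FPKM + 1) reached 3, and leaving out predicted models, the 5 other genes with the smallest p among those that passed only in the average were Pkig (0.53), Cep19 (0.43), Nudt2 (0.56), Tmem173 and Rpl13a. Zbtb46, a zinc-finger factor best known from classical dendritic cells, was named after its values were seen, as were Ccdc184, Tspan31, Rnf13, Praf2 and Gm10359. Zbtb46 rose by 1.07 (SE 0.16, adjusted p = 0.00216). It read 2.82, 3.55, 5.13, 3.34 and 1.72 FPKM in Control, 5.87, 6.19, 8.38, 6.89 and 6.85 in ABL503, 3.41, 1.88, 2.63, 1.69 and 1.06 in Pembrolizumab, and 4.32, 6.91, 4.52, 8.85 and 7.04 in the Combination. Ccdc184, a coiled-coil protein, rose by 1.83 (SE 0.24, adjusted p = 0.000538), with 2.99 to 17.0 FPKM with ABL503 and 0.733 to 3.78 without, and the tetraspanin Tspan31 by 0.48 (SE 0.08, adjusted p = 0.00606).

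**Figure D2:**
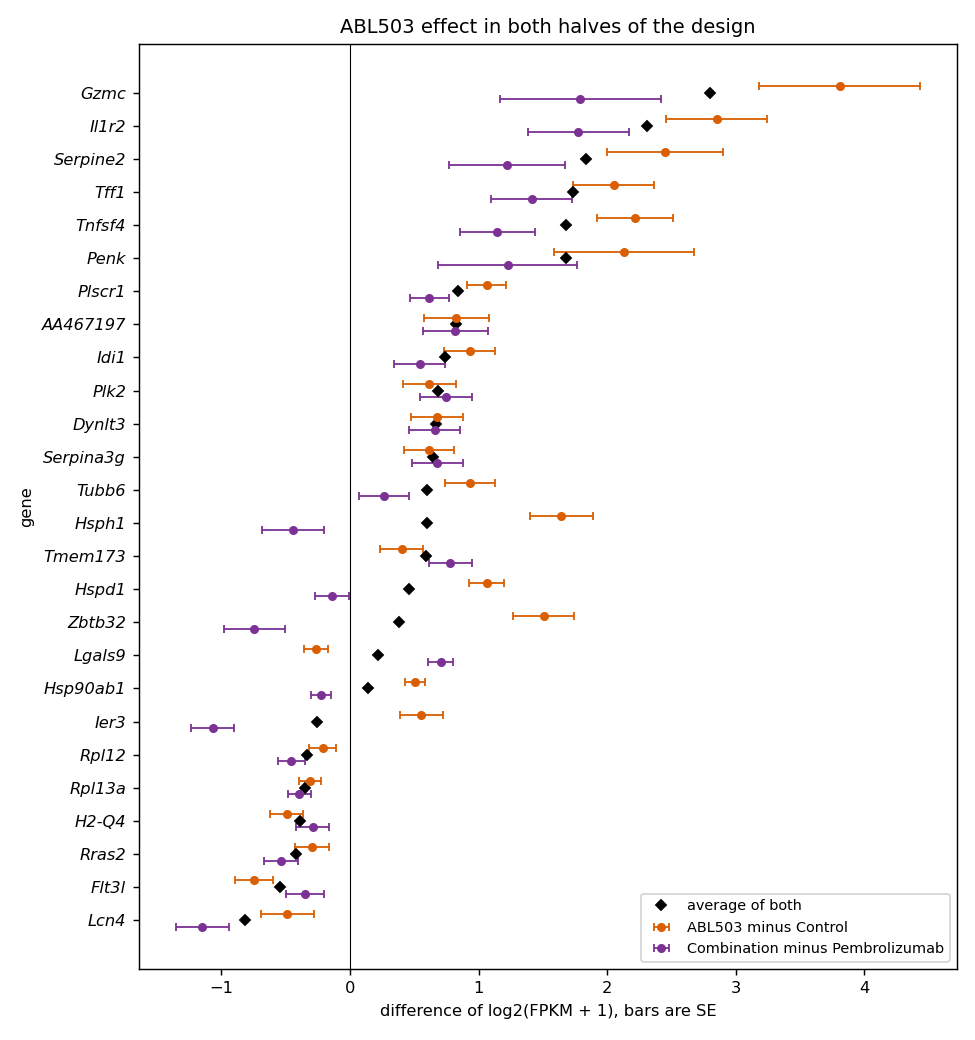
Differences of log2(FPKM + 1) for the genes with the largest rises and falls and for the 6 genes with the smallest interaction p, with the average as diamonds and ABL503 minus Control and Combination minus Pembrolizumab as points with SE bars. Gzmc, at 2.80, heads the averages and Lcn4, at -0.82, ends them, while the points of Hsph1, Hspd1, Zbtb32, Lgals9, Hsp90ab1 and Ier3 lie on opposite sides of 0.

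Glycolysis genes rose in part. Of 17 tested 4 rose and 0 fell, with a median of 0.26. Tpi1, triose phosphate isomerase, rose by 0.53 (SE 0.11, adjusted p = 0.0229), from 225 ± 27.7 FPKM in Control and 433 ± 110 in Pembrolizumab to 354 ± 50.4 in ABL503 and 570 ± 105 in the Combination. Pgk1, phosphoglycerate kinase, rose by 0.35 (SE 0.08, adjusted p = 0.0449), Aldoa, aldolase A, by 0.32 (SE 0.07, adjusted p = 0.0404) and Gapdh, glyceraldehyde-3-phosphate dehydrogenase, by 0.30 (SE 0.07, adjusted p = 0.0428). The average pembrolizumab effects beside them were 0.80, 0.66, 0.80 and 0.46. Only the call of Tpi1 was kept in all 20 fits without 1 library, and those of Pgk1, Aldoa and Gapdh were lost in 15, 13 and 15, with adjusted p up to 0.0906 (without Pembrolizumab 4), 0.0896 and 0.0934 (both without Combination 5). The 7 numbered models of this kind among the 80 risen genes best match Gapdh transcripts, at 99.756% to 100% identity, and cannot be counted as separate genes. Of 17 hypoxia and mitophagy genes 1 rose, Ero1l, an oxidase of the endoplasmic reticulum, by 0.43 (SE 0.10, adjusted p = 0.0404), a call lost in 15 of 20 fits without 1 library (adjusted p up to 0.083, without Control 2). Of 22 cholesterol synthesis genes 1 rose and 0 fell, with a median of 0.18 and 21 positive differences. The riser was Idi1, an isomerase of the sterol pathway, by 0.74 (SE 0.14, adjusted p = 0.018), with 9.05 to 27.7 FPKM with ABL503 and 6.87 to 13.0 without. The sterol pathway enzyme Fdps gave 0.54 (SE 0.17, adjusted p = 0.145).

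**Figure D3:**
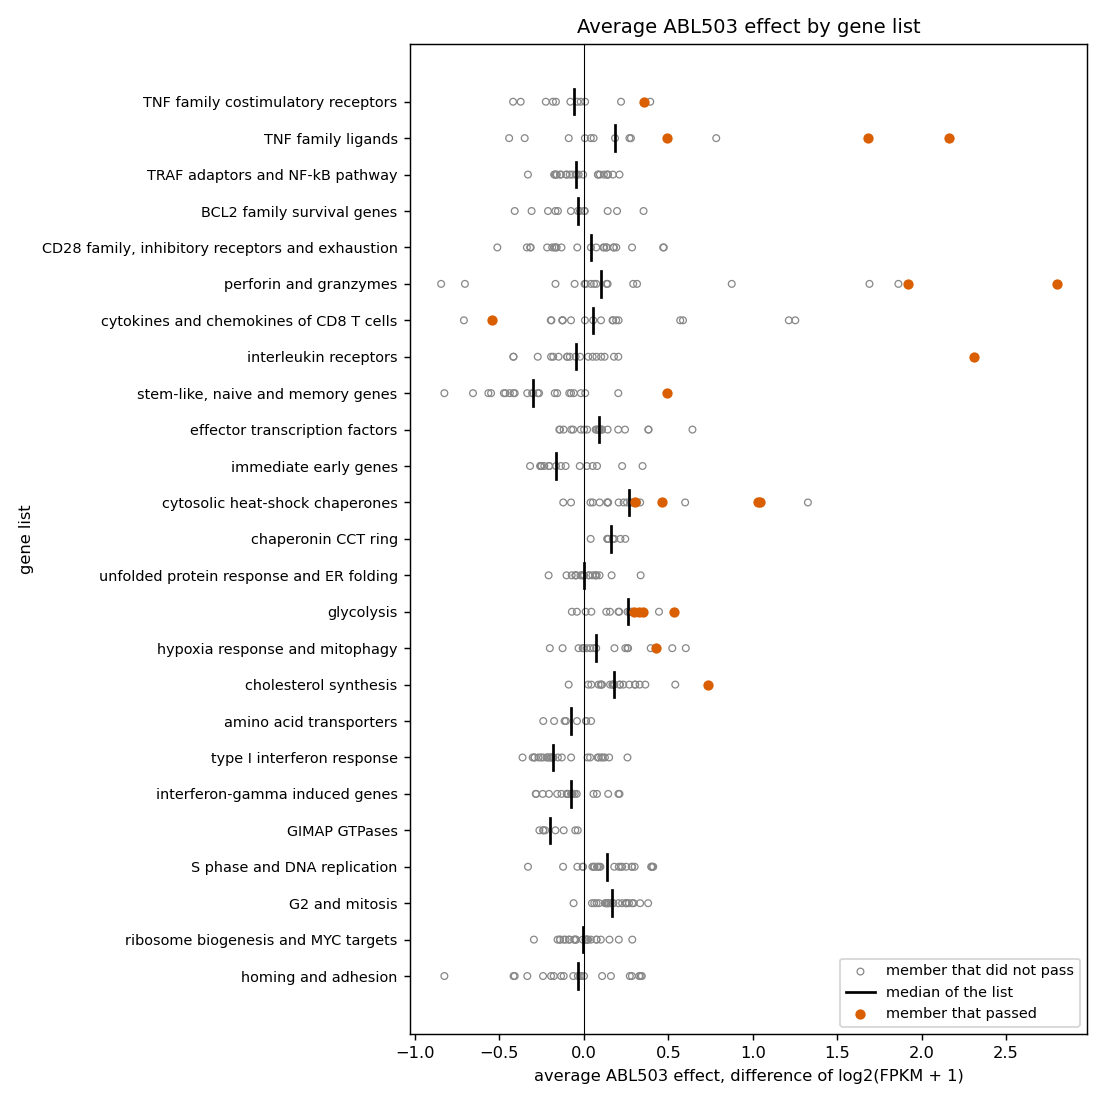
Average ABL503 effect, as a difference of log2(FPKM + 1), for each tested member of 25 gene lists, with orange points for members that passed and black lines for list medians. The TNF family ligands hold 3 orange points between 0.49 and 2.16, and the medians lie between -0.30 for stem-like genes and 0.27 for heat-shock chaperones.

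Among heat-shock genes the average effect combined unlike differences at the pembrolizumab levels. Chaperones of this kind fold newly made or stress-damaged proteins. Of 22 tested 4 rose and 0 fell, with a median of 0.27, which was 0.51 without pembrolizumab and 0.01 with it. Hspd1, the mitochondrial chaperonin HSP60, rose by 0.46 (SE 0.10, adjusted p = 0.0261). It read 61.3, 61.0, 72.1, 65.8 and 55.1 FPKM in Control, 144, 175, 145, 106 and 105 in ABL503, 90.9, 96.9, 77.7, 76.8 and 110 in Pembrolizumab, and 83.3, 90.4, 66.4, 78.2 and 90.6 in the Combination. The ABL503 libraries stood above all others but 1 Pembrolizumab library, at 110. Without pembrolizumab the difference was 1.06 (SE 0.14, adjusted p = 0.00141) and with it -0.14 (SE 0.14, adjusted p = 0.699). The test of the difference between them gave -1.20 (SE 0.19, adjusted p = 0.00884). Hspd1 was the only one of the 91 genes to pass that test. Of the inducible HSP70 genes, Hspa1b rose by 1.03 (SE 0.21, adjusted p = 0.021). Hspa1a rose by 1.05 (SE 0.24, adjusted p = 0.0404), and Hspa8, the constitutive HSP70, by 0.30 (SE 0.07, adjusted p = 0.0404). Hspa1b stood at 3.19 ± 1.07 FPKM in Control, 14.2 ± 5.17 in ABL503, 4.80 ± 2.83 in Pembrolizumab and 5.43 ± 1.61 in the Combination. The calls of Hspa1a, Hspa8 and Hspd1 were lost in 15, 13 and 5 of 20 fits without 1 library, with adjusted p up to 0.0896 for Hspa1a and Hspa8 (without Combination 5) and 0.0574 for Hspd1 (without Combination 2). None of the 4 passed without Control 1 and ABL503 3, where adjusted p ran from 0.0734 for Hspa1b to 0.0846 for Hspd1 and 0.112 for Hspa1a and Hspa8. Of 9 alternative processing settings, 6 ended the call of Hspa8, 4 that of Hspa1a, 4 that of Hspd1 and 3 that of Hspa1b.

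The inverted repeat GAANNTTC, which reads the same on both strands, stood here for the heat-shock element. It was found in the 250 bases before a start for 7 of 17 chaperone genes with a promoter (41.2%). The same held for 6 of 55 risen genes (10.9%) and 504 of 8087 tested genes (6.23%). The window of Hspa1b is shown whole because its gene had the largest risen value without pembrolizumab among these chaperones. It lies at chr17:34959239-34959488 on the minus strand (RefSeq, GRCm38.p6), with the match in capitals 104 bases before the start.
Hspa1b: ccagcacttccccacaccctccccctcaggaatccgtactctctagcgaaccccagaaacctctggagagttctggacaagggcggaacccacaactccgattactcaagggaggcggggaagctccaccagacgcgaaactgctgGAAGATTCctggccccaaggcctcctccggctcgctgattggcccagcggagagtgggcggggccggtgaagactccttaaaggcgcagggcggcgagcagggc
The Hspa1a window carried the same match at the same place and was identical at 247 of 250 bases, and both genes count in the shares above. Such a match describes the sequence and says nothing of binding in these cells. The genes themselves are near-identical neighbours, so reads may have been divided between them.

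Over all genes the interaction test, (Combination minus Pembrolizumab) minus (ABL503 minus Control), found 24 genes (0.203%), 5 positive (0.0424%) and 19 negative (0.161%). In all 24 the differences at the 2 pembrolizumab levels had opposite signs, so the average describes neither level there. The 6 with the smallest p above a mean log2(FPKM + 1) of 3 included Hspd1. Hsph1, of the HSP110 family, gave 1.64 (SE 0.24, adjusted p = 0.00269) without and -0.44 (SE 0.24, adjusted p = 0.446) with pembrolizumab, and an interaction of -2.09 (SE 0.34, adjusted p = 0.0119). Hsp90ab1, HSP90 beta, gave 0.51 and -0.22 (interaction -0.73, SE 0.11, adjusted p = 0.00461). Zbtb32, a zinc-finger repressor of activated lymphocytes, stood at 8.59 ± 2.44 FPKM in Control, 25.95 ± 5.12 in ABL503, 53.9 ± 12.4 in Pembrolizumab and 33.1 ± 11.9 in the Combination, with an interaction of -2.25 (SE 0.33, adjusted p = 0.00461). Ier3, an early stress-response gene, stood at 32.5 ± 9.41, 47.0 ± 7.61, 70.6 ± 9.12 and 33.1 ± 4.49 in the same order (interaction -1.62, SE 0.23, adjusted p = 0.00461). Lgals9, galectin 9, was the positive case, with 90.2 to 125 FPKM in Control and 79.97 to 98.6 in ABL503 but 74.6 to 97.3 in Pembrolizumab and 125 to 158 in the Combination, which did not overlap (interaction 0.97, SE 0.13, adjusted p = 0.00461).

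**Figure D4:**
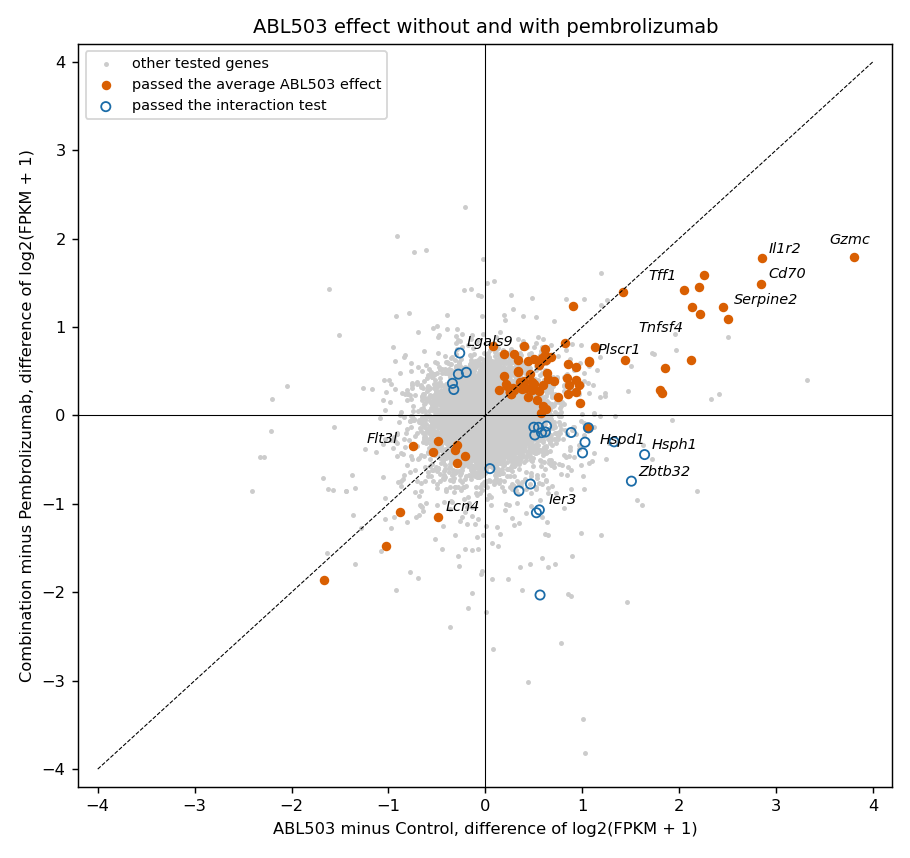
Differences of log2(FPKM + 1) for ABL503 minus Control (horizontal) and Combination minus Pembrolizumab (vertical) for 11794 tested genes, with the dashed line marking equal values. The genes that passed in the average (orange) lie in the upper right and lower left, apart from Hspd1 at 1.06 and -0.14, and the 24 genes of the interaction test (blue circles) lie in the other quadrants.

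Counted alone, ABL503 minus Control gave 73 genes (0.619%), 69 higher (0.585%) and 4 lower (0.0339%), and Combination minus Pembrolizumab 19 genes (0.161%), 8 higher (0.0678%) and 11 lower (0.0933%). Among the 80 risen genes the difference was the larger without pembrolizumab in 52, with medians of 0.61 without and 0.44 with it. Among the 11 fallen genes it was the larger without pembrolizumab in 3. In the Combination, libraries 1 and 3 were the lowest of 5 for Il1r2, Cd70, Gzmc, Tff1, Plscr1, Ccdc184, Tnfsf4, Zbtb46 and Idi1. These genes were picked after their values were seen, and the share of all genes with this order was not counted. For Hspd1 libraries 3 and 4 were the lowest. Without Combination 3, 141 genes passed in the average.

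Of the 11 genes that fell, 6 met the rule for named genes. Lcn4, a lipocalin, fell by 0.82 (SE 0.15, adjusted p = 0.0114). It read 20.7, 16.6, 21.4, 12.5 and 20.9 FPKM in Control, 17.9, 10.9, 11.3, 12.0 and 12.0 in ABL503, 18.9, 22.8, 22.8, 17.4 and 12.9 in Pembrolizumab, and 7.69, 4.69, 11.8, 9.95 and 6.81 in the Combination, the last of which lay below every Pembrolizumab library. Beside it and Flt3l were Rras2, a small GTPase of the RAS family (change -0.42, SE 0.09, adjusted p = 0.0404), and H2-Q4, a non-classical MHC class I gene with near-identical relatives (-0.39, SE 0.09, adjusted p = 0.0463). The ribosomal protein gene Rpl13a fell by 0.35 (SE 0.06, adjusted p = 0.0114), and Rpl12 fell by 0.33 (SE 0.07, adjusted p = 0.0383). Rpl13a stood at 1002 ± 61.0, 1005 ± 143, 809 ± 70.0 and 760 ± 48.1 FPKM across Control, Pembrolizumab, ABL503 and Combination libraries. Of 80 ribosomal protein genes taken by symbol these 2 fell and 0 rose, and 79 had a negative difference, with a median of -0.19. Over all 11794 genes tested 5965 differences were negative. The calls of Rras2, H2-Q4 and Rpl12 were lost in 13, 16 and 12 of the 20 fits without 1 library, with adjusted p up to 0.0837 (without ABL503 5), 0.0981 (without Combination 2) and 0.0809 (without ABL503 5). They were also lost in 5, 8 and 2 of 9 alternative processing settings. The other 5, named after their values were seen, were the NK-type receptor Klra6 (-0.99, SE 0.22, adjusted p = 0.037), the receptor V segments Trbv29 (-1.25, SE 0.27, adjusted p = 0.0352) and Trav6n-6 (-1.76, SE 0.38, adjusted p = 0.0319), and the models LOC115489965 and Gm17669. Klra6, Trbv29, Trav6n-6 and Gm17669 lost their calls in 10, 11, 9 and 14 of these fits, with adjusted p up to 0.0783, 0.0778 and 0.0672 (all without Combination 5) and 0.0879 (without ABL503 5).

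Among the lists of T-cell state only Ltb passed. Over all genes tested 0.772% passed, so lists of this size hold few calls at that share. Of 23 stem-like, naive and memory genes 1 rose, Ltb, and 0 fell, with a median of -0.30 and 20 negative differences. Klf3, a repressor of the Kruppel family, gave -0.66 (SE 0.17, adjusted p = 0.0703), Id3 -0.57 (SE 0.19, adjusted p = 0.178), and Tcf7, which encodes TCF1, -0.47 (SE 0.29, adjusted p = 0.494, 95% interval -1.09 to 0.14). Tcf7 stood at 36.5 ± 14.04 FPKM in Control, 24.9 ± 10.6 in ABL503, 11.9 ± 5.70 in Pembrolizumab and 9.49 ± 5.88 in the Combination. Of 23 CD28 family, inhibitory receptor and exhaustion genes none passed (median 0.04). Pdcd1 gave 0.29 (SE 0.17, adjusted p = 0.462), Havcr2, which encodes TIM-3, 0.19 (SE 0.10, adjusted p = 0.431) and Tox, an exhaustion-associated factor, 0.12 (SE 0.23, adjusted p = 0.873). Cd274, the PD-L1 gene of the same list, gave -0.16 (SE 0.12, adjusted p = 0.596). None of 22 effector transcription factors (median 0.09), 17 immediate early genes (-0.17), 24 S-phase genes (0.14) or 24 mitosis genes (0.16, 23 positive) passed. The proliferation gene Mki67 gave 0.12 (SE 0.12, adjusted p = 0.693).

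The remaining lists held no gene that passed. They were the chaperonin ring (8 genes, median 0.16), the unfolded protein response (19, 0.00), amino acid transporters (8, -0.07), the type I interferon response (26, -0.18), interferon-gamma induced genes (21, -0.08), GIMAP GTPases (8, -0.20, all negative), ribosome biogenesis (25, -0.01) and homing and adhesion (21, -0.04). The median of the type I interferon list was -0.42 without pembrolizumab and 0.14 with it, and none of its members passed the interaction test. Medians of several other lists changed sign too, here given without and then with pembrolizumab. GIMAP GTPases had -0.32 and 0.03, amino acid transporters 0.12 and -0.19, and the unfolded protein response 0.13 and -0.11. The perforin and granzyme list had 0.24 and -0.03, and effector transcription factors 0.19 and -0.03. Others kept their sign, as the stem-like list at -0.40 and -0.38 and glycolysis at 0.18 and 0.20.

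The ABL503 effect differed from the pembrolizumab effect in 151 genes (1.28%), 102 with the higher ABL503 value (0.865%) and 49 with the lower (0.415%). This difference of the average effects equals ABL503 minus Pembrolizumab, and both averages are made from the same 20 libraries. The split was 73 and 54 after quantile normalization and 154 and 43 with libraries rescaled to equal sums. Of the 91 genes 27 were among the 151, 24 with the higher and 3 with the lower ABL503 value. Among the genes that passed both this test and the average effect and whose mean log2(FPKM + 1) reached 3, Il1r2 had the widest gap, at 2.31 for ABL503 and 0.03 for pembrolizumab (difference 2.28, SE 0.39, adjusted p = 0.00609). Tff1 stood at 1.73 and -0.52 (difference 2.26, SE 0.31, adjusted p = 0.00447) and Tnfsf4 at 1.68 and -0.15 (difference 1.83, SE 0.29, adjusted p = 0.00501). Idi1 (0.74 and -0.24) and Plscr1 (0.84 and -0.09) followed. Cd70, below the expression limit of that rule, stood at 2.16 and -0.16 (difference 2.32, SE 0.46, adjusted p = 0.0148). On the other side of the same set were Tnfrsf9, at 0.36 and 0.91 (difference -0.55, SE 0.12, adjusted p = 0.02), and Aldoa, at 0.32 and 0.80 (difference -0.47, SE 0.10, adjusted p = 0.0278). Prf1 and Gzmb, which did not pass in the average, lay further below the pembrolizumab effect, with differences of -1.43 and -1.14. For Serpine2, at 1.83 and 2.80, the difference of -0.97 (SE 0.45, adjusted p = 0.351) did not pass.

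Markers of other cells were also compared, and none passed. All 9 tested macrophage and monocyte markers had a negative ABL503 effect (median -0.69, 0 passed), as did 7 of 10 dendritic-cell and MHC class II markers (median -0.21) and all 5 NK-cell markers (median -0.56). The lists further held 13 CD8 T-cell markers (median 0.03), 7 CD4 and regulatory T-cell markers (0.17), 2 B-cell markers (-0.24), 5 epithelial and tumour markers (-0.27) and 1 fibroblast marker (0.17), and 0 neutrophil markers reached the expression limit. The tested NK-cell markers were Gzma, Eomes, Txk, Klra7 and Klra9, of which Gzma and Eomes are also in the granzyme and effector lists. Ncr1, Klrb1a, Klrb1c and Klra8 did not reach the limit. Cd4 and Foxp3 did not reach it either, while Il2ra, Ctla4 and Tnfrsf4 did. The medians of these 2 lists therefore do not show the content of NK or CD4 cells. For Lyz2, a myeloid lysozyme gene, the 10 libraries with ABL503 ran from 0.362 to 39.3 FPKM (median 6.67) and the 10 without from 0 to 64.9 (median 10.7). The summed FPKM of macrophage, dendritic-cell and B-cell markers ran from 266 to 822 in Control, 151 to 331 in Pembrolizumab, 237 to 481 in ABL503 and 113 to 190 in the Combination. Its average log2 difference was -0.43, from -0.11 without and -0.76 with pembrolizumab (exact permutation test within pembrolizumab levels over 63504 arrangements, two-sided p = 0.0664). In bulk libraries fewer cells of a type and less RNA per cell cannot be told apart. With this sum as a covariate 11 genes passed, all of them among the 91. They were Il1r2, Tff1, Cd70, Plscr1, Tnfsf4, Pbk, Tspan13, Tspan31, Zbtb46, Il23a and Ccdc184, of which Pbk and Tspan13 were named after their values were seen. All 91 kept their sign and had an unadjusted p under 0.05 with the covariate, while the median size of their changes went from 0.55 to 0.51 and the median SE from 0.11 to 0.12.

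**Figure D5:**
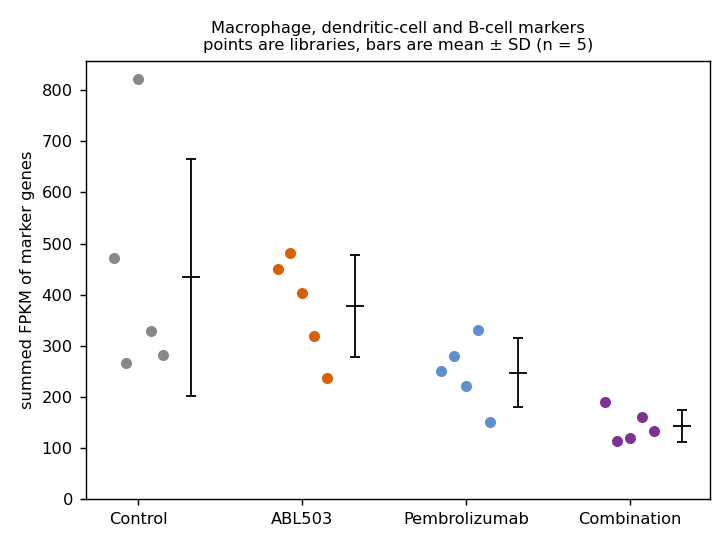
Summed FPKM of macrophage, dendritic-cell and B-cell marker genes per library, with points for libraries and bars for the mean ± SD of 5. Combination libraries lie between 113 and 190, and Control 3, at 822, is the highest of all 20.

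Across the fits that left out 1 library, between 47 (without Combination 2) and 141 (without Combination 3) genes passed, and 41 of the 91, 37 higher and 4 lower, passed in all 20. Without Control 1 and ABL503 3, 37 genes passed, 35 of them among the 91. Named genes that no longer passed then included Tpi1 (adjusted p = 0.0752), Idi1 (adjusted p = 0.0631), Tank (adjusted p = 0.0752), Tmem173 (adjusted p = 0.0752), Pkig (adjusted p = 0.0532), Nudt2 (adjusted p = 0.0645), Plk2 (adjusted p = 0.0787) and AA467197 (adjusted p = 0.112). The same held for Pgk1 (adjusted p = 0.119), Aldoa (0.129), Gapdh (0.126), Ero1l (0.124), Tubb6 (0.131), Rnf13 (0.0553), Praf2 (0.0645) and Gm10359 (0.121). Among the falls it held for H2-Q4 (adjusted p = 0.131), Rpl12 (0.105), Rras2 (0.0796), Klra6 (0.126), Trbv29 (0.112), Trav6n-6 (0.0578) and Gm17669 (0.122). A smaller set of 8 genes passed in all 20 of those fits and in all 9 other settings, namely Il1r2, Tff1, Plscr1, Tnfsf4, Ccdc184, Zbtb46, Cd70 and Tspan31.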

How the data were processed

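RNA from sorted tumour-infiltrating CD8+ T cells was sequenced as 20 libraries with a SMART-Seq v4 low-input kit, per the labels' protocols. The authors deposited 1 table of normalized values. The submitters' processing notes name HISAT2, StringTie and the mouse build GRCm38/mm10, without their roles. The deposited values were read as FPKM from their column sums and non-integer form. Versions and the handling of reads shared by near-identical genes are not given in the sources used here. Counts were not used here and no count test was run, sequencing depth is unknown, and 0 sample columns were left out.

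Values were analysed as log2(FPKM + 1) over genes with at least 1 FPKM in 5 libraries. A model with 4 group means was fitted with limma 3.58.1 in R 4.3.3 (moderated variances with an intensity trend), and contrasts were adjusted by Benjamini-Hochberg over all 11794 genes, with a threshold of 0.05. Every adjusted p is from this limma test unless a permutation test is named. Gene positions and promoters are from RefSeq, and numbered models were compared with GENCODE transcripts by blastn 2.17.0. In simulated data with 200 changed genes among 11794, the average effect recovered 77.6% of 1.5-fold, 95.5% of 2-fold and 98.5% of 4-fold changes, with 9 wrong calls. Each simulated gene was drawn independently from a normal distribution. Changes were put on the log2(FPKM + 1) scale, equally at both pembrolizumab levels, and only on genes above the low end of expression. Genes that vary together were not simulated, so recovery and wrong calls in the real libraries may be worse.

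The members of the 34 gene lists, and the comparison itself, were chosen with earlier results of these data known, so a list's direction is not independent support. Named genes were the 14 largest rises and falls that passed with a mean log2 value of at least 3 (leaving out predicted models, pseudogenes, small RNAs and receptor segments), for each list described, its top 4 members by p, a fixed panel of T-cell genes, and, under the same limits on mean and gene type, the 6 smallest interaction p, the 6 smallest p among genes that passed only in the average, and up to 5 of the largest differences from the pembrolizumab effect in each direction among genes that passed both tests (2 were eligible below it). Alternatives were no filter, a pseudocount of 0.1, quantile normalization, rescaled libraries, library weights, the replicate number as a block, a marker covariate, an additive model and leaving out each library. Leaving out Control 1 and ABL503 3 together was chosen after seeing the data.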

Additional observations from a re-analysis of the deposited data

Results flagged for a closer look

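Of 236 sets of 5 libraries checked for a single library far from the rest, 12 (5.08%) held one, where chance gives about 1 in 20. The sets come from the same libraries and are not independent of each other, so that share is only a rough guide. ABL503 1 and Control 1 had 4 each, Pembrolizumab 4 had 2, and ABL503 3 and Combination 4 had 1 each. In ABL503 1, Gzmc was low at 248 FPKM (next library 396), and Penk was high at 101 (next 42.5), as were Lcn4 at 17.9 (next 12.0) and Gzmb at 1270 (next 1010). In Control 1, Elk3 was low at 4.52 (next 7.54) and Ltb at 106 (next 136), and Tnfrsf9 was high at 131 (next 104) and Gzme at 1.18 (next 0.0485). In Pembrolizumab 4, Dynlt3 was low at 16 FPKM (next 21.4) and Birc3 high at 26.1 (next 19.6). Tff1 was low in ABL503 3 at 92.6 (next 137), and Nudt2 high in Combination 4 at 17.2 (next 12.9).

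For 6 named genes the ABL503 difference itself differed between the pembrolizumab levels by the interaction test. On the log2(FPKM + 1) scale the interaction was 0.97 for Lgals9, -1.625 for Ier3, -2.25 for Zbtb32, -0.7311 for Hsp90ab1, -1.202 for Hspd1 and -2.086 for Hsph1.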

How the results depend on the processing

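Precision is limited by 5 libraries a group and an unknown depth. Without the filter on low values 14 genes passed in the average effect, 42 in ABL503 minus Control, 3 in Combination minus Pembrolizumab, 6 in the interaction and 67 in the difference from pembrolizumab, against 91, 73, 19, 24 and 151. With the marker covariate 11, 1, 4 and 66 passed in the average, in Combination minus Pembrolizumab, in the interaction and in the difference. With library weights 85, 50 and 301 passed in the last 3 of these. Without Control 1 and ABL503 3 the 5 counts were 37, 37, 32, 7 and 89. Leaving out each library in turn gave 47 (without Combination 2) to 141 (without Combination 3) genes in the average, 40 (without ABL503 5) to 87 (without Combination 3) in ABL503 minus Control, 6 (without Pembrolizumab 1) to 49 (without Pembrolizumab 2) in Combination minus Pembrolizumab, 6 (without Pembrolizumab 1) to 49 (without Pembrolizumab 4) in the interaction, and 54 (without ABL503 2) to 218 (without ABL503 1) in the difference. Over all alternatives, 1753 values of named genes kept their direction and side of the threshold, 340 kept their direction but no longer passed, 1 newly passed (Il7r, without Control 4) and 0 of the 91 called genes reversed.

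Same-numbered libraries did not deviate together (30 pairs, correlations -0.146 to 0.107, 2 over 0.1), and 5 of 20 libraries correlated best with their own number. With the replicate block 71 genes passed in the average, and 60, 17, 16 and 120 in the other comparisons. With the replicate block and rescaled libraries 15 passed in the interaction.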
